A study of Mus musculus with 24 samples.

Results

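The loci of 8 transcription factor genes that act in germinal centre (GC) B cells were examined for chromatin accessibility in mice lacking 1 allele of Crebbp, of Kmt2d, or of both. The genes were Pou2af1, Pou2f1 and Pou2f2 of the octamer group, Mef2a, Mef2b, Mef2c and Mef2d of the MEF2 family, and Irf8. A locus was taken as the gene body in the mm10 (GRCm38) annotation extended by 50 kb on each side, and its members were all consensus peaks (regions called accessible by the authors over the whole set of libraries) that overlapped it. The 8 loci, of 18058 protein-coding genes with a peak within 50 kb, held 165 of the 65483 consensus peaks, and no peak belonged to more than 1 of them. The rule that selects the peaks uses position only, and the genes were chosen with earlier results of these data known.

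POU2F2 (OCT2) and POU2F1 (OCT1) bind the octamer sequence found in immunoglobulin gene promoters and in many B cell enhancers, and POU2AF1 (OCA-B) is a coactivator that binds the POU proteins on DNA and is required for GC formation. MEF2 proteins are signal-responsive factors that are held in check by class IIa histone deacetylases and by Cabin1. MEF2B is expressed strongly in GC B cells and promotes transcription of Bcl6, and MEF2C takes part in the proliferative response of B cells to antigen receptor signals. IRF8 acts with PU.1 on composite DNA elements and is abundant in GC B cells. CREBBP is a histone acetyltransferase and KMT2D a histone methyltransferase, and both act mainly at enhancers, the regulatory regions away from gene starts.

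GC B cells were sorted from the spleens of mice 10 days after immunization with sheep red blood cells (SRBC), and open chromatin was measured by bulk ATAC-seq, in which a transposase inserts adapters where DNA is accessible. The labels name the genotypes WT, C and K, with 4 libraries each, and CK, with 5 libraries. By the study's methods all groups, WT included, carried 1 Cg1Cre allele, which is driven by the immunoglobulin Cγ1 locus and is switched on in B cells that respond to antigen, and a floxed Crebbp allele beside a normal allele was added in C, a floxed Kmt2d allele in K, and both in CK. The study describes 8-week-old female C57BL/6J mice. Deletion of the floxed alleles was not checked here. The labels give replicate numbers but do not say which libraries were prepared together, so p-values measure the spread between these samples.

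The depth ran from 17483706 to 21857738 counted fragments per library. A member peak had a median of 123 fragments per library, against 85.5 for a peak among all peaks. Peaks on the Y chromosome had at least 1421 fragments in each of 9 libraries and at most 1 in each of the other 8, although the mice are described as female. Y signal was present in 2 of 4 WT libraries, 2 of 4 C libraries, 3 of 4 K libraries and 2 of 5 CK libraries, so results are also given with the Y signal as a term. WT replicate 4 stood above the other WT libraries at several of the loci below. Accessibility near markers of GC B cells was present in all libraries for 6 of 6 genes (summed promoter level 133 to 150 CPM per kb, where CPM is the count scaled by library depth, in WT and 117 to 139 in CK). Follicular B cell markers (4 of 4 with a promoter peak) summed to 57.8 to 63.4 in WT libraries. The sum was 54.9 to 59.2 in C libraries, 51.9 to 55.2 in K libraries and 51.2 to 56.3 in CK libraries, without overlap between WT and CK, and their part in the results was not tested. The T cell markers Cd3e, Cd3g, Cd4 and Cd8a and the myeloid markers Lyz2, Itgam and Mpo had no consensus peak at a start. Fragments outside peaks were not counted, so these markers entered the sums as 0 without a measurement. Summed promoter levels were 0.788 to 3.25 (1 of 5 T cell markers with a peak) and 7.94 to 12.2 CPM per kb (3 of 6 myeloid markers) over all libraries. Plasma cell markers (3 of 4 with a peak, Tnfrsf17 without) summed to 70.3 to 76.9 in WT and 73.3 to 78.0 in CK. Erythroid markers (2 of 3 with a peak, Hba-a1 without) summed to 41.0 to 43.1 in WT and 41.1 to 45.6 in CK, of which nearly all came from Klf1.

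Of the member peaks, 9 passed an adjusted p of 0.01 in CK against WT, where 8 were lost (lower in CK) and 1 was gained. The central 200 bases of the 5 of these peaks with the lowest p are shown, since these are the sites the differences described below turn on. They are read from the forward strand of mm10, and capitals mark a match to an octamer (ATGCAAAT) or an interferon response motif (GAAANNGAA, N being any base), the only matches found in them among the motifs searched. Each is named by its gene and the distance of the peak centre from the 5′ end of the gene, negative upstream and positive in the direction of transcription. The first lies at chr7:25209521-25209720, in an intron of Dedd2, a neighbour of Pou2f2. The second lies at chr1:165844810-165845009, in an intron of Cd247, beyond the 3′ end of Pou2f1. The third lies at chr9:51194946-51195145 and the fifth at chr7:25198331-25198530, both between genes, and the fourth at chr8:120725199-120725398 upstream of Irf8.
Pou2f2 at -29.9 kb: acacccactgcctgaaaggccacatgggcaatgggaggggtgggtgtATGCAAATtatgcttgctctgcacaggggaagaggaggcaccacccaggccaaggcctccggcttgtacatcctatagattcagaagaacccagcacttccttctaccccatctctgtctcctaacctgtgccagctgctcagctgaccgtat
Pou2f1 at 157.8 kb: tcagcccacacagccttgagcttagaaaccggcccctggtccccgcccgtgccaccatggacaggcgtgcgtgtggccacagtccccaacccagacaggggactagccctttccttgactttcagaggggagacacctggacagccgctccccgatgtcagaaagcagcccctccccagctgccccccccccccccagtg
Pou2af1 at -18.7 kb: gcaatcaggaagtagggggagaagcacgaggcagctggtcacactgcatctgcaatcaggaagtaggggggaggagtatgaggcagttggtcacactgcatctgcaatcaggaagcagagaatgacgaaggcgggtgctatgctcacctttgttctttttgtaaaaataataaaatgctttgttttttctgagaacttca
Irf8 at -11.1 kb: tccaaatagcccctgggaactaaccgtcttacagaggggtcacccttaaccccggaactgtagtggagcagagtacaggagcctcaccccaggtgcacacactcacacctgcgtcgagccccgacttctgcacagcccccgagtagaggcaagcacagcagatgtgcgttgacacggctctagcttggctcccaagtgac
Pou2f2 at -18.7 kb: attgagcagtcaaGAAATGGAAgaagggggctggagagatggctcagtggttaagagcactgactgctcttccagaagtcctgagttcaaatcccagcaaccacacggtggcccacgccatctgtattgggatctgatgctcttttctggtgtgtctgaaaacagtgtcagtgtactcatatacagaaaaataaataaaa

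In WT cells the loci differed in how accessible their peaks were. Summed over the peaks of a locus and divided by their summed length, the WT level was highest for Mef2b (28.8 ± 0.862 CPM per kb, SD, n = 4) and Mef2d (26.2 ± 1.02), followed by Pou2f2 (23.6 ± 0.886) and Irf8 (20.7 ± 1.41). Pou2f1 (15.8 ± 0.728), Mef2c (12.6 ± 0.914) and Pou2af1 (11.1 ± 0.940) were lower, and Mef2a was the lowest (6.40 ± 0.233). Of the neighbours in this order, Mef2c and Pou2af1 had overlapping WT libraries, and the others did not. The windows take in other protein-coding genes, from 0 at Mef2c to 7 at Mef2b (Rfxank and Borcs8 among them), so these are levels of loci and not of the named genes alone.

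With 1 allele each of Crebbp and Kmt2d deleted, accessibility was lower at 8 peaks of these loci and higher at 1. In CK against WT, 8 of 165 member peaks were lost, or 4.85%, and 1 was gained, or 0.606% (edgeR quasi-likelihood test, Benjamini-Hochberg adjustment over all peaks, adjusted p under 0.01), whereas 3.3% of all peaks were lost and 3.54% gained. Of the 109 distal member peaks, which lie over 5 kb from every start of a protein-coding gene, 7 were lost and 1 gained. Of the 56 promoter peaks, 1 was lost and 0 gained. At an unadjusted p under 0.05, 27 of the 165 peaks were lower and 14 higher in CK, where 14.2% of all peaks were lower and 14.7% higher. DESeq2 called 9 member peaks, 7 lost and 2 gained, with 8 of the 9 shared with edgeR. It added the gained Pou2af1 peak at -32.8 kb and did not call the lost Irf8 peak at -26.9 kb. Over all peaks the split was 1556 lost and 746 gained of 39871 distal peaks, and 602 lost and 1574 gained of 25612 promoter peaks. The median log2 fold change was -0.02 over the member peaks and 0.0029 over all peaks, and 54.5% of member peaks were below 0 against 49.4% of all peaks, values that lie close together. In bulk samples a lower level per cell and fewer cells with the site open cannot be told apart. The libraries without Y signal and those with it gave the same direction at the strongest of these sites, and a term for the Y signal gave 14 called member peaks in place of 9, with all 9 among them. Without WT replicate 3, and likewise without WT replicate 4, 2 calls remained, the Pou2f2 peak at -29.9 kb and the Pou2f1 peak at 157.8 kb, and 4 remained without any 1 of CK replicates 1 to 3.

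**Figure D1:**
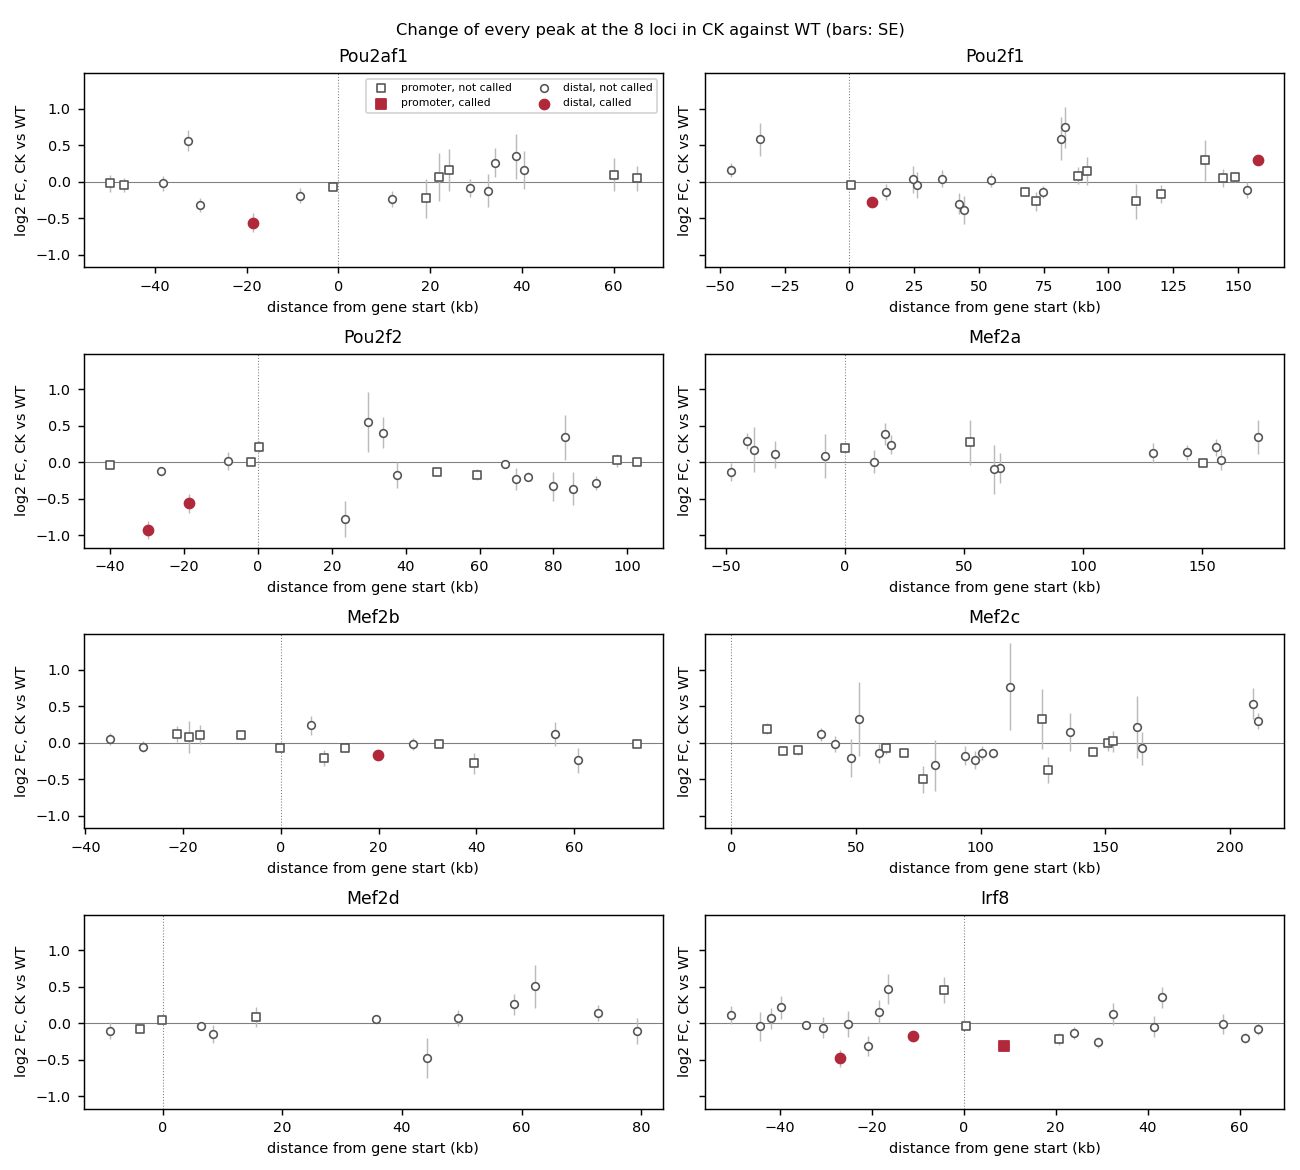
Log2 fold change in CK against WT (y axis, bars SE) of each of the 165 member peaks by distance of the peak centre from the 5′ end of the gene in kb (x axis), in 1 panel per gene. Squares are promoter peaks and circles distal peaks, and filled red symbols passed an adjusted p of 0.01; the lowest called value is the Pou2f2 peak at -29.9 kb (-0.92) and the only called value above 0 is the Pou2f1 peak at 157.8 kb (0.31).

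The octamer group held 66 of the peaks, of which 4 were lost (6.06%, against 3.3% of all peaks) and 1 gained (1.52%, against 3.54%) in CK. The largest change was at the peak at -29.9 kb of Pou2f2, which encodes the B cell octamer factor, within an intron of Dedd2 (chr7:25209452-25209788, 337 bp). Its level was 6.81, 8.25, 8.72 and 10.6 CPM in the WT libraries, 6.51, 7.49, 5.86 and 6.27 CPM in C, and 5.94, 5.72, 4.55 and 6.64 CPM in K. In CK it was 4.87, 4.20, 4.26, 4.38 and 4.90 CPM. All CK and K libraries lay below all WT libraries, and 3 of 4 C libraries did. The log2 fold change was -0.92 ± 0.13 (SE) in CK (edgeR adjusted p = 3.59e-05), -0.58 ± 0.13 in K (adjusted p = 0.0094) and -0.39 ± 0.13 in C (adjusted p = 0.266). The CK call was kept under all 25 alternatives tried (adjusted p 2.97e-09 to 0.000325). Among libraries with Y signal the CK mean was lower than WT by -0.702 on the log2 scale, and without it by -1.12. The K call was the only member call in K (0 gained, where 0.647% of all peaks were, and 1 lost, 0.606% of member peaks against 0.828% of all peaks), and it was kept in 11 of 25 alternatives (adjusted p 0.00227 to 0.0545). It was lost with the Y signal as a term and when any of 12 libraries was left out, each of WT replicates 2 to 4, K replicates 1 to 3, CK replicates 1 to 4 and C replicates 1 and 4 (log2 fold change -0.471 without WT replicate 4 and -0.488 without K replicate 3). Its centre holds the octamer in capitals above.

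A second Pou2f2 peak at -18.7 kb (chr7:25197687-25199173, intergenic) measured 6.01, 3.97, 5.58 and 4.93 CPM in WT and 3.64, 3.88, 2.98, 3.99 and 2.82 CPM in CK. The C libraries ranged from 4.35 to 5.43 CPM and the K libraries from 4.09 to 5.18 CPM, inside the WT range, and 4 of 5 CK libraries lay below all WT libraries. On the log2 scale the fold change was -0.56 ± 0.13 in CK (edgeR adjusted p = 0.00565), -0.18 in K and -0.07 in C. It was called in 18 of 25 alternatives (adjusted p 0.00208 to 0.0252) and lost with only the genotypes compared (adjusted p = 0.0136) and without any 1 of CK replicates 3 and 5 and WT replicates 1, 3 and 4 (log2 fold change -0.480 to -0.582).

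By contrast, the peaks at the starts of Pou2f2 were not called. The most accessible start peak, over an internal start at 48.5 kb, had 165 ± 11.9 CPM in WT and 150 ± 11.3 CPM in CK (log2 fold change -0.14, adjusted p = 0.0726). The peak over the upstream start had 44.8 ± 2.69 CPM in WT and 42.4 ± 2.79 CPM in C libraries, and 54.5 ± 6.35 CPM in K and 51.9 ± 5.16 CPM in CK libraries (log2 fold change 0.21 in CK, adjusted p = 0.0486). The strongest distal peak, at 66.9 kb, was at 48.9 ± 4.16 CPM in WT and 48.1 ± 2.98 CPM in CK.

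At Pou2af1, the OCA-B coactivator gene, the intergenic peak at -18.7 kb (chr9:51194649-51195441) measured 5.69, 4.86, 5.76 and 7.37 CPM in WT. It measured 5.33, 4.65, 5.92 and 4.94 CPM in C, 4.67, 4.98, 5.65 and 4.01 CPM in K, and 3.30, 4.31, 4.40, 4.38 and 3.63 CPM in CK. All 5 CK libraries lay below all WT libraries, and C and K overlapped WT. The log2 fold change was -0.56 ± 0.13 in CK (edgeR adjusted p = 0.00532), -0.29 in K (adjusted p = 0.22) and -0.18 in C (adjusted p = 0.744), and the CK call was lost without CK replicate 1 or 5 or WT replicate 3 or 4 (adjusted p up to 0.0407, log2 fold change -0.441 without WT replicate 4). The strongest distal peak of the locus, at -30.2 kb (chr9:51182352-51184590), fell short of the threshold, with 38.1 ± 5.34 CPM in WT and 30.6 ± 2.08 CPM in CK (log2 fold change -0.32 ± 0.09, adjusted p = 0.0217), although all 5 CK libraries (27.4 to 33.0 CPM) lay below all WT libraries (35.3 to 46.1 CPM). It was called with the Y signal as a term (3 of 25 alternatives in all called it). In the other direction, the peak at -32.8 kb was higher in CK, with 3.83 ± 0.262 CPM in WT and 5.65 ± 1.13 CPM in CK. It also fell short of the threshold (log2 fold change 0.56 ± 0.15, edgeR adjusted p = 0.0101), although DESeq2 called it. The start peak at -1.1 kb measured 158 ± 9.28 CPM in WT and 151.1 CPM in CK (adjusted p = 0.308).

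At Pou2f1, the gene of the ubiquitous octamer factor, 1 peak was gained and 1 lost. The gained peak at 157.8 kb (chr1:165843777-165846042) lies past the 3′ end of the gene in an intron of Cd247, the CD3 zeta chain gene of T and NK cells. It measured 29.4, 28.9, 25.9 and 27.4 CPM in WT and 31.2, 30.8, 29.3 and 29.3 CPM in C. The K libraries were at 31.1, 35.2, 32.8 and 33.7 CPM, and the CK libraries at 36.9, 35.2, 32.8, 31.7 and 35.8 CPM. All K and CK libraries lay above all WT libraries, and 2 of 4 C libraries did. Its log2 fold change was 0.31 ± 0.06 in CK (edgeR adjusted p = 0.000882), 0.25 ± 0.06 in K (adjusted p = 0.0163) and 0.11 ± 0.06 in C (adjusted p = 0.616), and it was called in CK under all 25 alternatives (adjusted p 7.34e-05 to 0.00803). Of the 5 T cell markers Thy1 had a promoter peak, at 1.60 to 2.16 CPM per kb in WT and 1.46 to 3.25 in CK, and the other 4 had none. The part of T cells in this difference was not tested.

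The lost Pou2f1 peak, at 8.7 kb (chr1:165992642-165995244, intronic), measured 28.3, 29.8, 30.9 and 32.6 CPM in WT and 25.2, 23.4, 22.1, 25.8 and 29.6 CPM in CK. The CK values were below all WT values in 4 of 5 libraries. These values gave a log2 fold change of -0.27 ± 0.07 (edgeR adjusted p = 0.00814), with -0.085 in K and -0.12 in C, and the call held in 15 of 25 alternatives. It was lost without any 1 of CK replicates 1 to 4, WT replicates 2 to 4 and C replicate 1 (log2 fold change -0.227 to -0.280), and with peaks scaled within bins of GC content (-0.193). The start peak at 0.5 kb measured 178.5 ± 4.76 CPM in WT and 173.5 ± 14.5 CPM in CK (log2 fold change -0.04, adjusted p = 0.604). That value moved to -0.336 (adjusted p = 1.26e-05) with scaling in bins of GC content. In C the same peak was 161.9 to 166.4 CPM, below all WT libraries (172.5 to 184.1 CPM), without passing the test (log2 fold change -0.13, adjusted p = 0.39).

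The Irf8 locus held 24 peaks, of which 3 were lost (12.5%, against 3.3% of all peaks) and 0 gained (3.54% of all peaks) in CK. The strongest distal peak, at -11.1 kb (chr8:120724377-120726219), measured 110.8, 115.0, 111.6 and 118.4 CPM in WT and 106.6, 98.3, 95.7, 99.9 and 106.3 CPM in CK. The C libraries were at 100.7, 103.2, 109.6 and 106.6 CPM and the K libraries at 111.0, 108.3, 110.6 and 110.2 CPM. All CK and all C libraries lay below all WT libraries, and 3 of 4 K libraries did. The log2 fold change was -0.17 ± 0.04 in CK (edgeR adjusted p = 0.00534), -0.12 ± 0.04 in C (adjusted p = 0.348) and -0.05 ± 0.04 in K (adjusted p = 0.546). The CK call was lost with GC content bins and without any 1 of CK replicates 2 to 4 and WT replicates 2 to 4 (log2 fold change -0.149 to -0.179, adjusted p up to 0.0302).

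A small peak at -26.9 kb of Irf8 (chr8:120709185-120709690, in an intron of Gm20388) measured 3.94, 3.71, 4.22 and 3.88 CPM in WT and 2.86, 2.91, 3.31, 2.54 and 2.48 CPM in CK. The C libraries (3.02 to 3.45 CPM) and the K libraries (3.05 to 3.45 CPM) also lay below all WT libraries. Its log2 fold change was -0.48 ± 0.12 in CK (edgeR adjusted p = 0.00667), and -0.28 in both C (adjusted p = 0.493) and K (adjusted p = 0.19). It was called in 14 of 25 alternatives (adjusted p 0.00382 to 0.0277), and not by DESeq2 or when any 1 of CK replicates 1, 2, 4 and 5 and WT replicates 1 to 4 was left out (log2 fold change -0.438 to -0.506).

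The third Irf8 peak, at 8.8 kb (chr8:120742744-120747620, 4877 bp), covers a start of shorter Irf8 transcripts inside the gene and was the only called promoter peak. It measured 157, 167, 174 and 206 CPM in WT and 159, 151, 152 and 171 CPM in C. The K libraries were at 150.0, 157, 149 and 170 CPM and the CK libraries at 135, 126, 128, 152 and 169 CPM. The groups overlapped, with 4 of 5 CK libraries below all WT libraries. In CK the log2 fold change was -0.31 ± 0.07 (edgeR adjusted p = 0.00628), against -0.17 in K and -0.15 in C. Without WT replicate 4, the highest library, it was -0.223 (adjusted p = 0.0523), and the call was also lost without any 1 of WT replicate 3 and CK replicates 1 to 3 (log2 fold change -0.267 to -0.312). The peak at the main start, at 0.4 kb, had 53.3 CPM in WT and 52.0 CPM in CK (log2 fold change -0.04, adjusted p = 0.657).

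**Figure D2:**
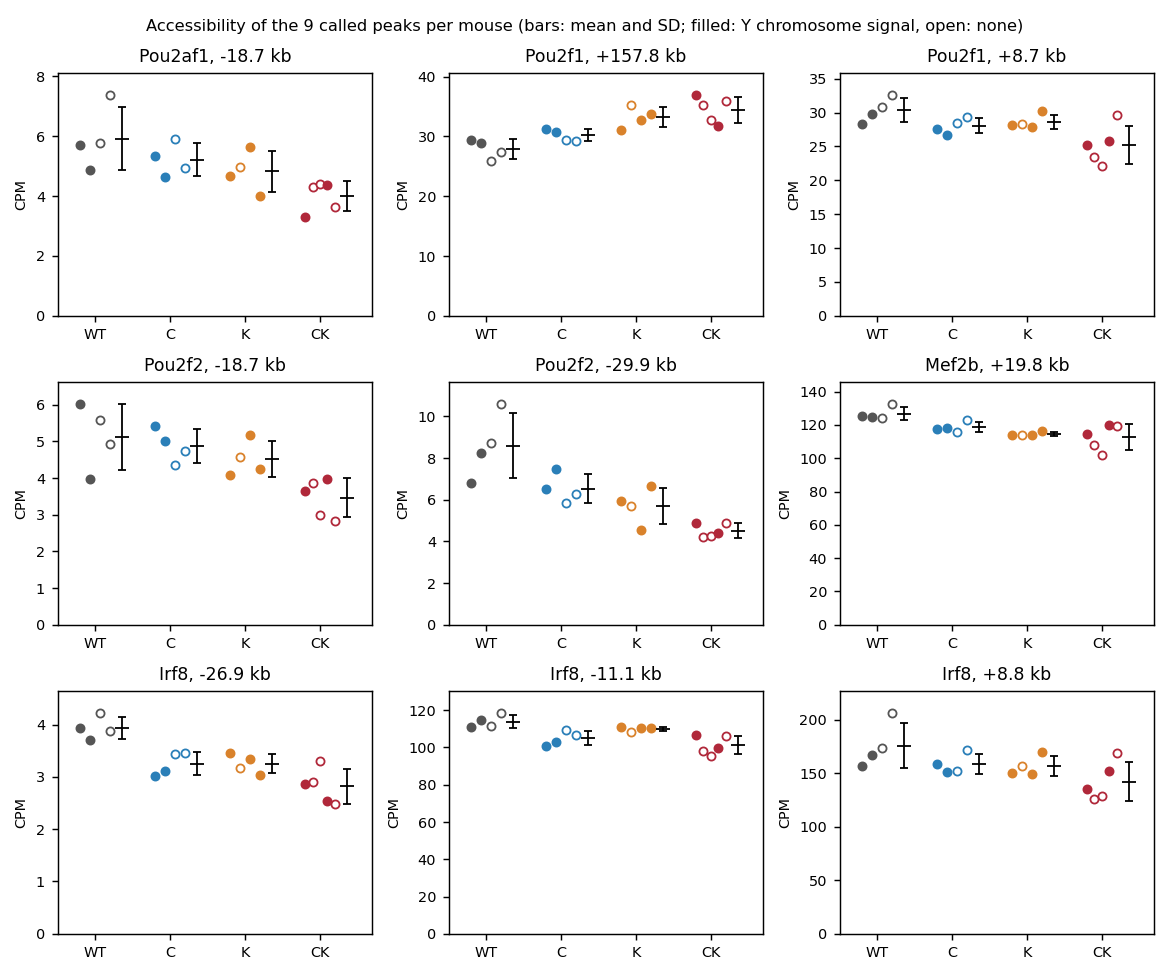
Normalized level in CPM (y axis) of each called member peak in every library of WT, C, K and CK (x axis), with bars for mean and SD. Filled points are libraries with Y chromosome signal and open points those without; at the Pou2f2 peak at -29.9 kb all 5 CK libraries (4.20 to 4.90 CPM) lie below the lowest WT library (6.81 CPM).

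The MEF2 family held 75 peaks, of which 1 was lost (1.33%, against 3.3% of all peaks) and 0 gained (3.54% of all peaks) in CK. The lost peak was the strongest distal peak of the Mef2b locus, at 19.8 kb in an intron (chr8:70158300-70160689). Its WT libraries measured 125.4, 124.6, 124.3 and 132.4 CPM, and its CK libraries 114.5, 107.9, 101.9, 120.0 and 119.4 CPM. The C libraries measured 117.6, 118.2, 116.0 and 122.9 CPM and the K libraries 114.1, 113.7, 113.7 and 116.1 CPM, so that every library of every mutant genotype lay below every WT library. For CK the log2 fold change was -0.17 ± 0.04 (edgeR adjusted p = 0.00925), -0.15 ± 0.05 in K (adjusted p = 0.0573) and -0.09 ± 0.05 in C (adjusted p = 0.554). The CK value lay just inside the threshold, was called in 14 of 25 alternatives and was lost without any 1 of 10 libraries, namely WT replicates 1 to 4, CK replicates 1 to 3, C replicate 1 and K replicates 3 and 4 (log2 fold change -0.134 to -0.179). The Mef2b start peak, which lies beside Rfxank and Borcs8, measured 58.0 ± 2.03 CPM in WT and 55.1 ± 3.33 CPM in CK (adjusted p = 0.379).

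At Mef2a, Mef2c and Mef2d, the other members of the family, edgeR and DESeq2 called 0 of 58 peaks in each genotype, where edgeR called 0.16% of all peaks in C, 0.647% gained and 0.828% lost in K, and 3.54% gained and 3.3% lost in CK. At an unadjusted p under 0.05 there were 2 of the 58 in C (8.9% of all peaks), 6 in K (20.6%) and 12 in CK (28.9%). With the Y signal as a term edgeR called 1 of them in CK, at 76.9 kb of Mef2c. For Mef2a the lowest p was at the start peak, with 47.6 ± 4.37 CPM in WT and 54.5 ± 4.03 CPM in CK (log2 fold change 0.20 ± 0.06, adjusted p = 0.0401), whose sign turned with scaling in bins of GC content (-0.0946). For Mef2c it was at an internal start at 69.4 kb, with 100.3 ± 4.72 CPM in WT and 91.0 ± 4.97 CPM in CK (log2 fold change -0.14 ± 0.05, adjusted p = 0.0463). For Mef2d it was at a peak of about 1 CPM at 44.2 kb (1.05 ± 0.222 CPM in WT and 0.752 ± 0.198 in CK, adjusted p = 0.248). The start peak of Mef2d was at 113 ± 11.2 CPM in WT and 117 ± 9.77 CPM in CK, and its strongest distal peak at 97.5 ± 3.53 and 101 ± 1.91 CPM. The strongest distal peak of Mef2c, at 104.9 kb, had 72.9 ± 5.99 CPM in WT and 65.9 ± 4.93 CPM in CK (adjusted p = 0.135), and that of Mef2a, at -47.7 kb, 21.04 and 19.29 CPM in WT and CK.

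Of the 2 members nearest the outside of the threshold in CK, the Pou2af1 peak at -32.8 kb was higher (log2 fold change 0.56, adjusted p = 0.0101) and the Irf8 peak at 29.2 kb lower (-0.26, adjusted p = 0.0174). Nearest inside it was the Mef2b peak at 19.8 kb. DESeq2, a filter of 10 counts in 4 libraries, the replicate block and the Y signal as a term each called the Pou2af1 peak at -32.8 kb. So did leaving out CK replicate 5 or C replicate 3. The Irf8 peak at 29.2 kb was called with the replicate block, with the Y signal as a term, and without CK replicate 5 or WT replicate 1. Of the 9 called peaks, 1 exceeded a 1.5-fold change, the Pou2f2 peak at -29.9 kb, while the Pou2af1 and Pou2f2 peaks at -18.7 kb lay just under it.

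Deletion of 1 Crebbp allele alone gave no called change at these loci. In C against WT edgeR called 0 of 165 member peaks, where it called 0.16% of all peaks, and DESeq2 also called 0. At an unadjusted p under 0.05 there were 12, or 7.27%, against 8.9% of all peaks. At the 9 sites called in CK the C mean lay between those of WT and CK, with log2 fold changes of -0.07 to -0.39 at the 8 lost peaks, a comparison that shares the WT libraries. The fit with replicate number as a block also called 0.

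The design also asks whether CK differed from either single genotype and whether its changes were those expected if the changes in C and K added up. Against K, edgeR called 0 of 165 member peaks (0.00916% of all peaks) and DESeq2 0, and 10 had an unadjusted p under 0.05, where 7.35% of all peaks did. All 10 were lower in CK than in K, where over all peaks 2101 were lower and 2713 higher. Against C, edgeR called 0 (1.68% of all peaks) and DESeq2 2, and 27 had an unadjusted p under 0.05, where 21.2% of all peaks did. Of these 27, 18 were lower and 9 higher in CK, where over all peaks 6645 were lower and 7243 higher. The lowest adjusted p against C was 0.0137, at the Pou2f2 peak at -29.9 kb (log2 fold change -0.53 ± 0.13), and with the Y signal as a term edgeR called 2. In both cases these were the Pou2f2 peaks at -29.9 and 0.4 kb, the latter higher in CK. Against the added changes of both single genotypes edgeR called 0 (0.0107% of all peaks) and DESeq2 0, and 1 had an unadjusted p under 0.05 (a Pou2af1 peak within the gene of about 1.31 CPM in WT), where 3.73% of all peaks did. At the Pou2f2 peak at -29.9 kb the log2 fold change in CK was 0.05 ± 0.18 above that sum, and at the Pou2f1 peak at 157.8 kb it was lower by -0.06 ± 0.08. A difference that misses the threshold does not show that the genotypes were alike.

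Summed over all peaks of a locus, Irf8 was the only member called in CK, in a sum that includes its 3 called peaks. The Irf8 locus held 610.9, 625.8, 627.9 and 707.5 CPM in WT, 587.7, 579.8, 607.6 and 623.3 CPM in C, 602.1, 617.2, 595.1 and 649.6 CPM in K, and 562.9, 544.4, 553.1, 579.5 and 626.8 CPM in CK. WT replicate 4 was the highest, and 4 of 5 CK libraries lay below all WT libraries. The log2 fold change was -0.17 ± 0.04 in CK (edgeR adjusted p = 0.00761 over all loci), -0.10 ± 0.04 in C (adjusted p = 0.438) and -0.06 in K (adjusted p = 0.395). It was 1 of 8 members that fell, against 3.74% of all loci, while 0 rose, against 7.84%. Without WT replicate 4 it was -0.117 (adjusted p = 0.0545), and the call was also lost without any 1 of CK replicates 1 to 4 and WT replicates 2 and 3 (log2 fold change -0.148 to -0.178). The difference was -0.114 among libraries with Y signal and -0.216 among those without.

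The other 7 loci did not pass the test in CK. Lower means were found at Pou2af1 (290 ± 24.7 CPM in WT and 271 ± 14.5 in CK, log2 fold change -0.10, adjusted p = 0.141), Pou2f2 (737 and 698 CPM, -0.08, adjusted p = 0.108) and Mef2c (495 and 462 CPM, -0.10, adjusted p = 0.0955). Mef2a was higher in CK (147 ± 5.35 and 158 ± 11.6 CPM, 0.10, adjusted p = 0.0943), while Mef2d was at 402 and 405 CPM. Pou2f1 (466.2 and 450.0 CPM) and Mef2b (542 and 522 CPM) were lower by about 0.05 on the log2 scale (-0.051 and -0.054). The members' median log2 fold change was -0.07 in CK, with 6 of 8 below 0, against 0.03 over all loci, where 38.0% were below 0. The members' median was -0.03 in C (-0.02 over all loci) and -0.02 in K (0.03 over all loci).

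In C, edgeR called 0 of 8 loci, where it called 0.437% of all loci, DESeq2 called 0, and 1 (Irf8) had an unadjusted p under 0.05, where 9.98% of all loci did. In K, edgeR called 0 of 8, where it called 2.71% of all loci, DESeq2 called 0, and 0 had an unadjusted p under 0.05, where 26.9% of all loci did.

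**Figure D3:**
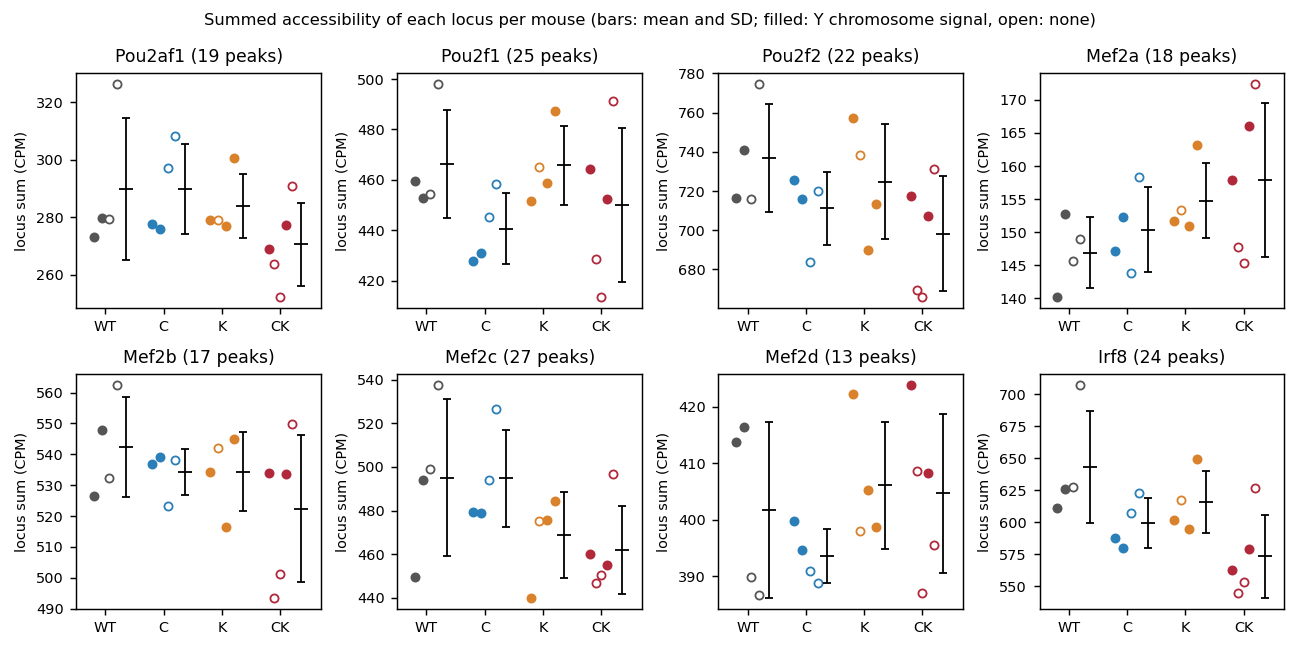
Summed level in CPM (y axis) over all peaks of each of the 8 loci in every library of WT, C, K and CK (x axis), with bars for mean and SD. Filled points are libraries with Y chromosome signal and open points those without; the Irf8 locus runs from 610.9 to 707.5 CPM in WT and from 544.4 to 626.8 CPM in CK, and the Mef2d locus has means of 402 and 405 CPM.

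When only distal peaks were summed, the Pou2f2 locus was called in CK, in a sum that includes its called peaks at -29.9 and -18.7 kb. Its distal peaks summed to 189.1, 192.8, 194.9 and 210.1 CPM in WT and to 177.4, 173.2, 171.2, 176.6 and 178.1 CPM in CK, with means of 190 ± 6.77 in C and 186 ± 5.19 in K. All 5 CK libraries lay below all WT libraries. This gave a log2 fold change of -0.17 ± 0.04 in CK (edgeR adjusted p = 0.00254), -0.08 in K (adjusted p = 0.202) and -0.05 in C (adjusted p = 0.703). It was 1 of 8 members whose distal sum fell, against 7.31% of all loci, and 0 rose, against 3.37%. The call was lost without WT replicate 4 (-0.13, adjusted p = 0.0155), with a window of 25 kb, and where only starts of protein-coding transcripts defined promoters (-0.08, adjusted p = 0.112).

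The distal sum of Irf8 was 342 CPM in WT and 313 CPM in CK, with all 5 CK libraries below all WT libraries, and missed the threshold (log2 fold change -0.13, adjusted p = 0.0154), although DESeq2 called it. That of Pou2af1 was 94.8 and 83.5 CPM (-0.18, adjusted p = 0.0559). The members' median for distal sums was -0.10 in CK against -0.02 over all loci. In C, edgeR and DESeq2 called 0 of 8 distal sums, where edgeR called 0.425% of all, and 1 (Irf8) had an unadjusted p under 0.05, where 10.2% of all did. In K both called 0, where edgeR called 2.57% of all, and 1 (Pou2f2) had an unadjusted p under 0.05, where 24.4% of all did. Promoters took 66.4 ± 0.736% of all fragments in WT and 66.4 ± 0.719% in C. They took 67.8 ± 1.18% in K libraries and 67.8 ± 0.459% in CK libraries, a shift that moved beside the distal values and whose part in them was not tested.

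**Figure D4:**
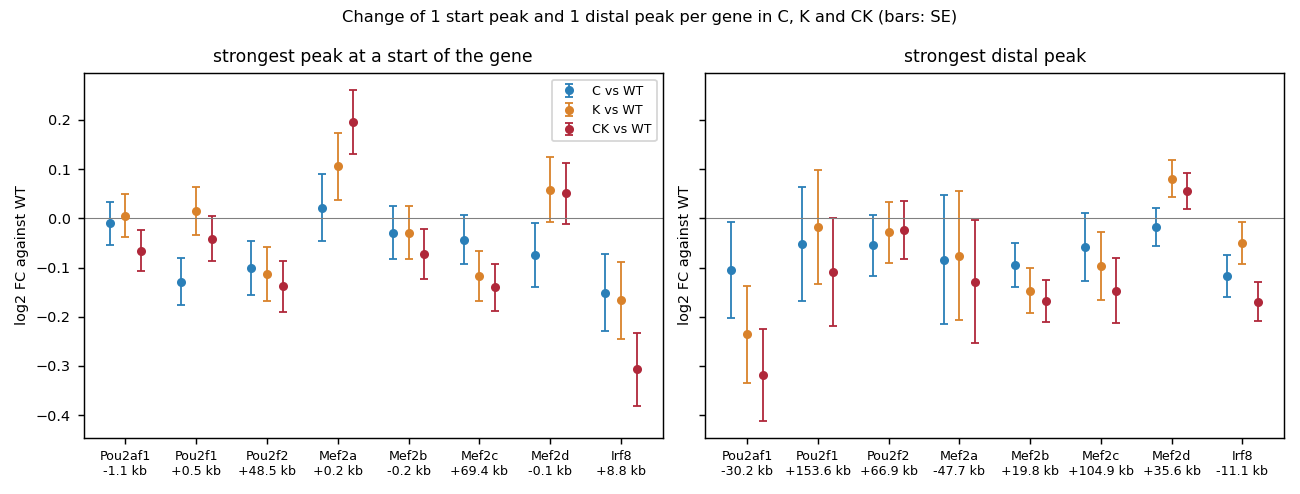
Log2 fold change against WT (y axis, points with bars for SE) in C, K and CK of the most accessible start peak (left) and the strongest distal peak (right) of each member gene (x axis, with the distance in kb). In CK the distal values of Mef2b and Irf8 (-0.17 each) passed an adjusted p of 0.01, the Pou2af1 distal value (-0.32, adjusted p = 0.0217) did not, and the Irf8 start peak shown is the one at 8.8 kb (-0.31).

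Genes known to act with these factors or downstream of them were described in the same way, from 3 lists. Of 8 partners and targets of IRF8, 2 loci fell in CK and 0 rose by edgeR, where 3.74% of all loci fell and 7.84% rose. These were Ikzf1 (Ikaros, a lymphoid factor; 601 CPM in WT and 542 in CK, log2 fold change -0.15 ± 0.04, adjusted p = 0.00368) and Ciita (the MHC class II transactivator; 423 and 384 CPM, -0.14 ± 0.04, adjusted p = 0.00709). Others on the list, Spi1, Irf4, Batf, Bcl6 and Mdm2, lay between -0.05 and 0.03 on the log2 scale, with adjusted p from 0.277 to 0.686. The distal sums of Ikzf1 and Ciita also fell, where 7.31% of all did (-0.21, adjusted p = 0.00384, and -0.25, adjusted p = 0.00442). Without WT replicate 4 none of these 4 calls held (adjusted p = 0.0286 for the Ikzf1 locus, 0.0495 for the Ciita locus, and 0.0257 and 0.0298 for the distal sums). Calls were also lost without CK replicate 1 (both loci and the Ikzf1 distal sum), without CK replicate 2 (the Ciita locus and both distal sums), and, for the Ciita locus, without any 1 of CK replicates 3 and 4 and WT replicates 2 and 3 (adjusted p up to 0.0206). Of the 6 octamer partners and targets (Spib, Btk, Cd36, Ms4a1, Cd79b and Siah1a) and the 10 MEF2 regulators and targets (among them Hdac4, Hdac5, Hdac7, Hdac9, Cabin1, Nr4a1, Klf2 and Jun) none was called by edgeR or DESeq2, with 2 loci of each list at an unadjusted p under 0.05, where 36.3% of all loci were, and Siah1a had the lowest adjusted p of the octamer list (0.13 on the log2 scale, adjusted p = 0.0195). The median log2 fold changes in CK were -0.03, -0.00405 and -0.05 for the octamer, MEF2 and IRF8 lists, against 0.03 over all loci. In the single genotypes both tools called 0 of the 24 loci, where edgeR called 0.437% of all loci in C and 2.71% in K. At an unadjusted p under 0.05 there were 0 in C (9.98% of all loci) and 4 in K (26.9%).

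The central 200 bases of the member peaks were searched on both strands for motifs of the factors themselves. The octamer ATGCAAAT was found in 8 of 165 member peaks (4.85%, against 2.86% of all peaks) and the MEF2 consensus in 9 (5.45% against 1.67%). The PU.1-IRF composite motif GGAANNGAA was found in 6 (3.64% against 7.56%) and the interferon response motif GAAANNGAA in 11 (6.67% against 7.21%), and a window can hold both. Among the 9 peaks called in CK, the octamer was found in 1 (Pou2f2 at -29.9 kb, bases 48 to 55 of the sequence above), the MEF2 consensus in 1 (Irf8 at -26.9 kb), the interferon response motif in 1 (Pou2f2 at -18.7 kb, bases 14 to 22 above) and the PU.1-IRF motif in 0. A match describes letters in the window and not binding.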

How the data were processed

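ATAC-seq fragments of 17 libraries were processed by the authors with the nf-core ATAC-seq pipeline 1.2.1 (alignment to mm10, consensus peak calling over the libraries) and counted per consensus peak with featureCounts 2.0.1, where a fragment counted for a peak with an overlap of at least 0.2 of its length and could count for several. The deposited values are raw counts without normalization, with 17483706 to 21857738 per library. No column was without a sample, and the 7 sorted centroblast and centrocyte libraries were not analysed here.

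Counts were fitted with edgeR 4.0.16 in R 4.3.3 (TMM factors, all libraries, 1 coefficient per genotype, quasi-likelihood test). P-values were adjusted by Benjamini-Hochberg over all 65483 peaks or all gene loci, and calls were made at an adjusted p under 0.01. No peak fell under the minimum of 10 summed counts. CPM were computed with the same factors. Genes and starts were taken from GENCODE M21, and sequences from the GRCm38 genome. Peaks within 5 kb of any transcript start of a protein-coding gene were promoter peaks, and the rest distal. The peaks described were, for each locus, the start peak with the highest CPM in WT within 1 kb, the distal peak with the highest CPM per kb in WT, each called peak, and without any the peak with the lowest p in CK. The Pou2f2 and Irf8 peaks at 0.4 kb and the peaks next to the threshold were added after their values were seen. The members and the lists were chosen with earlier results of these data known.

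The fit was tested on simulated counts of CK against WT, where it called 89 of 200 peaks changed 1.5-fold with 1 false call, and 170 of 200 changed 2-fold with 5 false calls. Replicate numbers were checked for pairing from the correlation of deviations from group means, which was 0.14 to 0.224 for the 4 like-numbered pairs of C and WT. These pairs also share Y status. Unlike-numbered pairs of C and WT with the same Y status ran from 0.05865 to 0.1663, and those with unlike Y status from -0.1915 to -0.0858. Pairing by number and shared Y status could therefore not be told apart. The correlation was -0.093 to 0.127 for K and WT and -0.055 to 0.192 for CK and WT, where the check of pairing was not met. Alternatives were DESeq2 1.42.0, other scalings and filters, windows of 25 and 100 kb, GC content bins, the replicate block, the Y signal as a term (fitted in the same model) and leaving out each library. Added after seeing the data were the block in C and WT alone and starts of protein-coding transcripts.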

Additional observations from a re-analysis of the deposited data

Results flagged for a closer look

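In 17 of 156 groups of values (10.9%) 1 library lay far from the others by Dixon's criterion, where chance gives about 5%, and the groups share peaks. WT replicate 4 was that library in 8 of them and K replicate 4 in 4.

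At Pou2af1 the locus sum was 326.4 CPM in WT replicate 4 (273.2 to 279.8 in the other WT libraries) and 300.5 CPM in K replicate 4 (276.9 to 279.0 in the others). The distal sum was 110.5 CPM in WT replicate 4 (89.02 to 90.6) and 96.66 CPM in K replicate 4 (84.68 to 86.03). Its peak at -30.2 kb was at 46.13 CPM in WT replicate 4 (35.33 to 35.62), and its start peak at 171.9 CPM in WT replicate 4 (151.6 to 154.9) and 163.6 CPM in K replicate 4 (156.9 to 157.7).

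At Pou2f1 the locus sum was 498.1 CPM in WT replicate 4 (452.7 to 459.7) and the distal sum 179.2 CPM (156.9 to 159.6). Its peak at 153.6 kb was at 11.15 CPM in K replicate 3 (13.9 to 14.33), and its start peak at 166.4 CPM in C replicate 4 (161.9 to 162.5).

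At Mef2b the locus sum was 523.1 CPM in C replicate 3 (537.0 to 539.2) and the distal sum 198.0 CPM in WT replicate 4 (181.7 to 184.0). The peak at 19.8 kb was at 132.4 CPM in WT replicate 4 (124.3 to 125.4) and 116.1 CPM in K replicate 4 (113.7 to 114.1). At Mef2c the locus sum was 496.9 CPM in CK replicate 5 (447.0 to 460.3) and the distal sum 158.9 CPM (137.4 to 142.7).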

How the results depend on the processing

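The call of the Pou2f2 peak at -29.9 kb and that of the Pou2f1 peak at 157.8 kb in CK were kept under every alternative run. By contrast, the other called peaks and the Irf8 locus sum lay close to the threshold. The Pou2f2 distal sum in CK was called in 23 of 26 alternatives, with an adjusted p up to 0.112. Of the settings that left out no library, 822 values of single loci and peaks kept their direction and side of the threshold, 16 gained a call, 18 lost it and 25 changed sign. The cause of these changes was not tested. At 4 or 5 libraries a group 1.5-fold changes are recovered in part.

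The count of member peaks called in K, 1 as reported, was 3 at an adjusted p under 0.05, 3 with GC content bins, 2 with DESeq2, 2 with a window of 100 kb, and 0 with a fold floor of 1.5, with a window of 25 kb, with only the genotypes compared and with the Y signal as a term. Leaving out each library gave 0 to 1, with 0 for 12 libraries. The count in CK, 9 as reported, was 18 at an adjusted p under 0.05, 1 with the fold floor, 14 with 100 kb, 4 with only the genotypes compared (3 of them among the 9) and 14 with the Y signal as a term. With GC content bins it was 11, 7 of them among the 9, without the Irf8 peak at -11.1 kb and the Pou2f1 peak at 8.7 kb. The calls added there were Mef2b at 72.8 kb, the Pou2f1 start peak at 0.5 kb, and Pou2f2 at -26.2 and 102.5 kb. Leaving out each library gave 2 to 10, with 2 without WT replicate 3 or 4, 4 without CK replicate 1, 2 or 3, and 5 without WT replicate 2. For CK against C, 0 as reported, the count was 6 at an adjusted p under 0.05, 2 with 100 kb, 2 with DESeq2, 2 with GC content bins, 1 with only the genotypes compared and 2 with the Y signal as a term, and leaving out each library gave 0 to 1. For locus sums in CK, 1 as reported, the count was 0 with the fold floor, with only the genotypes compared and with 100 kb, and 0 to 1 without each library. For distal sums in CK, 1 as reported, it was 2 at an adjusted p under 0.05, 2 with DESeq2, 0 with the fold floor, and 0 to 1 without each library.

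With the replicate block the counts were 3 for peaks in K, 19 for peaks in CK (7 of the 9 reported, without the Irf8 peak at -26.9 kb, adjusted p = 0.0133, and the Pou2f2 peak at -18.7 kb, adjusted p = 0.0139), 4 for CK against C, 3 for locus sums in CK (Irf8, Mef2c and Pou2af1) and 4 for distal sums in CK (Irf8, Mef2b, Pou2af1 and Pou2f2). For K and CK the numbers are shared but the check of pairing was not met. For C and WT, whose like-numbered libraries also share Y status, the block changed no call of a member peak or locus. Under the replicate block the Mef2c locus in C was at 2.22e-05, and at 0.000997 with the block in C and WT alone.

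The signs that turned belonged to values that were not called as reported. With GC content bins these were the Pou2f1 start peak in K (-0.206, called there), the Mef2a start peak in C (-0.0198), K (-0.114) and CK (-0.0946), the Mef2d start peak in K (-0.0683) and CK (-0.107), and the Mef2d peak at 35.6 kb in CK (-0.016). With the Y signal as a term they were the Pou2f1 locus (0.0043) and the Pou2f1 peak at 153.6 kb (0.0187), both in K. With library totals in place of TMM they were the Pou2f1 locus in K (0.000779), and in C the Mef2b locus (0.00582), the Mef2c locus (0.0256), the Pou2af1 start peak (0.0168) and the Mef2d peak at 35.6 kb (0.0101). With only the genotypes compared it was the Pou2af1 start peak in K (-0.000825). With 100 kb they were the Pou2f1 (0.0212) and Mef2b (0.00652) loci in K, the Mef2c locus in C (0.0156), the Mef2d locus in CK (-0.0184), and in CK the distal sums of Pou2f1 (0.0126), Mef2c (0.0401) and Mef2d (-0.0441). With 25 kb it was the Pou2af1 locus in C (-0.0086).

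Leaving out each library, sign changes gave these ranges of log2 fold change. The Pou2af1 locus ran from -0.0321 to 0.0617 in C and from -0.0576 to 0.033 in K, the Pou2f1 locus from -0.0238 to 0.0322 in K, and the Pou2f2 locus from -0.0473 to 0.000832 in K. The Mef2c locus ran from -0.0443 to 0.0405 in C, and the Mef2d locus from -0.00516 to 0.0335 in K and from -0.0107 to 0.0286 in CK. The Pou2f1 distal sum ran from -0.0838 to 0.0129 in CK. The Pou2af1 start peak ran from -0.0376 to 0.0317 in C and from -0.0141 to 0.0478 in K. The Pou2f1 peak at 153.6 kb ran from -0.109 to 0.071 in C, from -0.0746 to 0.106 in K and from -0.195 to 0.0133 in CK, and the Pou2f1 start peak from -0.00127 to 0.0301 in K. The Pou2f2 peak at 66.9 kb ran from -0.0873 to 0.00517 in C, from -0.0747 to 0.0315 in K and from -0.0566 to 0.0359 in CK, and the Pou2f2 peak at -18.7 kb from -0.174 to 0.0141 in C. The Mef2a start peak ran from -0.0266 to 0.0714 in C and the Mef2d start peak from -0.00555 to 0.0968 in CK. The Mef2d peak at 35.6 kb ran from -0.0385 to 0.0034 in C and the Mef2d peak at 44.2 kb from -0.243 to 0.106 in C.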

Other observations

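Across the 17 libraries the locus sums of several members moved together. These are descriptions over libraries of different genotypes that were scaled together, whose batches the labels do not give, and they carry no test. Pearson's r of log2 CPM was 0.878 between Pou2f2 and Mef2b, 0.866 between Irf8 and Pou2af1, and 0.826 between Pou2af1 and Mef2c. Mef2d went the other way against Mef2c (-0.629) and Pou2af1 (-0.4). WT replicate 4 was the highest WT library at Pou2f2, Mef2b, Irf8, Pou2af1 and Mef2c, and the lowest at Mef2d (386.7 CPM). The part of this library in these values was not tested. Among genes on other chromosomes the loci most like the members were Tmem245 (0.942) and Dexi (0.933) for Pou2af1, Bcar3 (0.905) and Ifi27 (0.899) for Pou2f1, and Snx11 (0.946) and Timm29 (0.939) for Pou2f2. They were Tbk1 (0.856) and Bbs9 (0.819) for Mef2a, Ptdss2 (0.95) and Macf1 (0.939) for Mef2b, Dennd1a (0.926) and Vxn (0.911) for Mef2c, and Epn1 (0.896) and Slc35e2 (0.891) for Mef2d. For Irf8 they were Chst3 (0.945) and Fcrla (0.942), an Fc receptor-like gene of B cells.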
